A study of Mus musculus with 6 samples.

Results

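Chemokine ligand genes were followed in the tibialis anterior (TA) muscle of aged mice. The 10 genes considered were Ccl2, Ccl6, Ccl7, Ccl8, Ccl9, Ccl11, Cxcl1, Cxcl9, Cxcl12 and Cxcl14, and they were chosen on measured values of these same libraries, so the difference of each between the groups is given as a description with no test. Of the 10 genes, 7 are named among the 16800 genes of the deposited TPM tables, which hold transcript abundance scaled for length and library total, and were joined by gene identifier to the table of raw counts, which lists 45777 genes. The remaining 3 (Ccl2, Ccl7 and Cxcl1) are described by their raw counts only. All animals were male C57BL/6J mice labelled as 24 months old, and the study's text also gives somewhat older ages for them. The 3 control mice received vehicle, a mixture of DMSO and Tween, and the 3 treated mice received BML-260 at 5 mg/kg in the same kind of vehicle, by intraperitoneal injection every day for 4 weeks. BML-260 is a small molecule used here as an inhibitor of the phosphatase DUSP22, and no gene was deleted in either group. The libraries were made from total RNA of the muscle, in which fewer cells of a type and less RNA per cell cannot be told apart.

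Chemokines are small secreted proteins that bind G protein-coupled receptors on leukocytes and direct their movement along a gradient. They are divided into the CC and CXC classes by the spacing of the first cysteines. In skeletal muscle they are made mainly by resident macrophages, fibroblast-like stromal cells and vessel cells, and inflammatory members are known for recruiting neutrophils and monocytes after injury, while Cxcl12 and Cxcl14 are known as ligands that are made at rest.

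The libraries held between 39522890 and 56998875 counts. Vehicle replicate 3 stood apart from the rest: its correlation across genes in log2 CPM was between 0.940 and 0.948 with the other 5 libraries, whereas each of the others reached at least 0.975 with its closest library. It also had the highest TMM scaling factor, 1.20 against 0.914 to 1.02 in the others. The ligand values are therefore given with and without it. The muscle fiber markers summed to between 69875 and 99532 TPM, far above every other marker list. Dusp22 itself, the gene of the drug's target, had normalized counts of 1783, 1496 and 919 with vehicle and 1779, 1756 and 1389 with BML-260, which overlap (log2 fold change 0.23 ± 0.24, SE). Among the 16188 genes tested with edgeR's quasi-likelihood test, 0 (0%) passed a Benjamini-Hochberg adjusted p of 0.05, against 966 at an unadjusted p under 0.05 and after adjustment 95 by DESeq2 and 1 by limma voom with quality weights.

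Of the 10 genes, 6 lie on mouse chromosome 11 (assembly GRCm38). Ccl2, Ccl7, Ccl11 and Ccl8 lie in that order with gaps of 8259, 10306 and 52229 bases, and Ccl12 lies within the last of these gaps. Ccl9 and Ccl6 lie 1456117 bases beyond Ccl8 and 9249 bases from each other. Of the others, Cxcl1 and Cxcl9 are on chromosome 5, Cxcl12 on chromosome 6 and Cxcl14 on chromosome 13. The sequences immediately before the transcription starts of Ccl8, Ccl9 and Ccl6 are shown because these were the ligands whose vehicle and BML-260 libraries did not overlap. They are the 250 bases before the start from RefSeq, assembly GRCm38.p6, written 5′ to 3′ on the strand of the gene, with letters that match a searched motif in capitals. The stretch for Ccl8 is chr11:82114935-82115184 on the plus strand, that for Ccl9 is chr11:83578637-83578886 on the minus strand, and that for Ccl6 is chr11:83593088-83593337 on the minus strand.
Ccl8: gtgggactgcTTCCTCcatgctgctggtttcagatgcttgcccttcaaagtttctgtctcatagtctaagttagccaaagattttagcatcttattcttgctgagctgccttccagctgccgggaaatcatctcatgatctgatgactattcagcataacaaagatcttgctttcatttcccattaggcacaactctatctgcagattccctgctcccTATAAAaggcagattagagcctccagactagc
Ccl9: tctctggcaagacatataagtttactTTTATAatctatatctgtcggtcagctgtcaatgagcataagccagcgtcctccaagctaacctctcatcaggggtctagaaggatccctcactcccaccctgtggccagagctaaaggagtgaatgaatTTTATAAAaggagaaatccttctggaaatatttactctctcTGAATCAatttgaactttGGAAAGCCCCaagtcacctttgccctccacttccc
Ccl6: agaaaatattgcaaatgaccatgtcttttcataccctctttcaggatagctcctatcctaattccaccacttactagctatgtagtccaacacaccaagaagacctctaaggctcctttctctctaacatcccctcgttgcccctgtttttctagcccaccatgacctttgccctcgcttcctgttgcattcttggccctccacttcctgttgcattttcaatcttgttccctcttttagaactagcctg

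The motifs searched on both strands were the NF-kB site, the AP-1 site TGANTCA, the GAS element TTCNNNGAA, the core of the interferon-stimulated response element GAAANNGAA, the C/EBP site TTGCNNAA, the PU.1 site GAGGAA and the TATA box TATAAA. In the Ccl8 stretch a TATA match lay 32 to 27 bases before the start and a PU.1 match on the opposite strand lay 240 to 235 bases before it. In the Ccl9 stretch an NF-kB match on the opposite strand lay 35 to 26 bases before the start, an AP-1 match lay 53 to 47 bases before it, and TATA letters were found at 3 positions, of which 2 overlap each other. The Ccl6 stretch held none of these letters. Over 32851 mouse promoters of the same length, 3.9% held the NF-kB letters, 6.75% AP-1, 7.02% GAS, 7.13% the interferon core, 9.56% C/EBP, 23.3% PU.1 and 12.4% TATA, so that a PU.1 or TATA match is common. A RefSeq stretch was matched for 6 of the 7 ligands in the TPM tables. The guanine and cytosine content was 44.8% for Ccl8, 43.6% for Ccl9 and 45.2% for Ccl6, 44.4% for Cxcl9, whose groups overlapped, 64.4% for Cxcl12 and 59.6% for Cxcl14, with a median of 52.4% over all promoters.

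Levels of the 7 ligands were compared per transcript length, in TPM. With vehicle the order of the medians was Cxcl14 (61.9 TPM), Cxcl12 (25.2), Ccl11 (22.8), Ccl8 (8.07), Ccl6 (6.92), Ccl9 (2.04) and Cxcl9 (0.469). Cxcl12 and Ccl11 overlapped, as did Ccl8 with Ccl6 and Ccl6 with Ccl9, while the other neighbours in the order did not. With BML-260 the order was Cxcl14 (28.1 TPM), Cxcl12 (23.5), Ccl11 (19.6), Ccl6 (3.43), Ccl8 (2.22), Ccl9 (1.25) and Cxcl9 (0.221). There the 3 most abundant ligands formed an overlapping series, as did the next 3. Cxcl14, Cxcl12 and Ccl11 together made up 85.7%, 83.7% and 63.4% of the summed TPM of the 7 ligands in the vehicle libraries and 92.2%, 94.7% and 90.6% in the BML-260 libraries. The sum itself was 120, 93.3 and 225 TPM with vehicle and 91.5, 80.2 and 74.5 TPM with BML-260. The groups did not overlap, but only narrowly, at 93.3 TPM against 91.5 TPM. On log2 TPM the median of all genes was also lower with BML-260, by 0.098 to 0.139, so nothing is read from this gap. The highest sum was that of vehicle replicate 3. Ccl6 alone contributed 24.5% there, against 5.74% and 7.16% in the other vehicle libraries and 2.07% to 5.00% with BML-260.

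**Figure D1:**
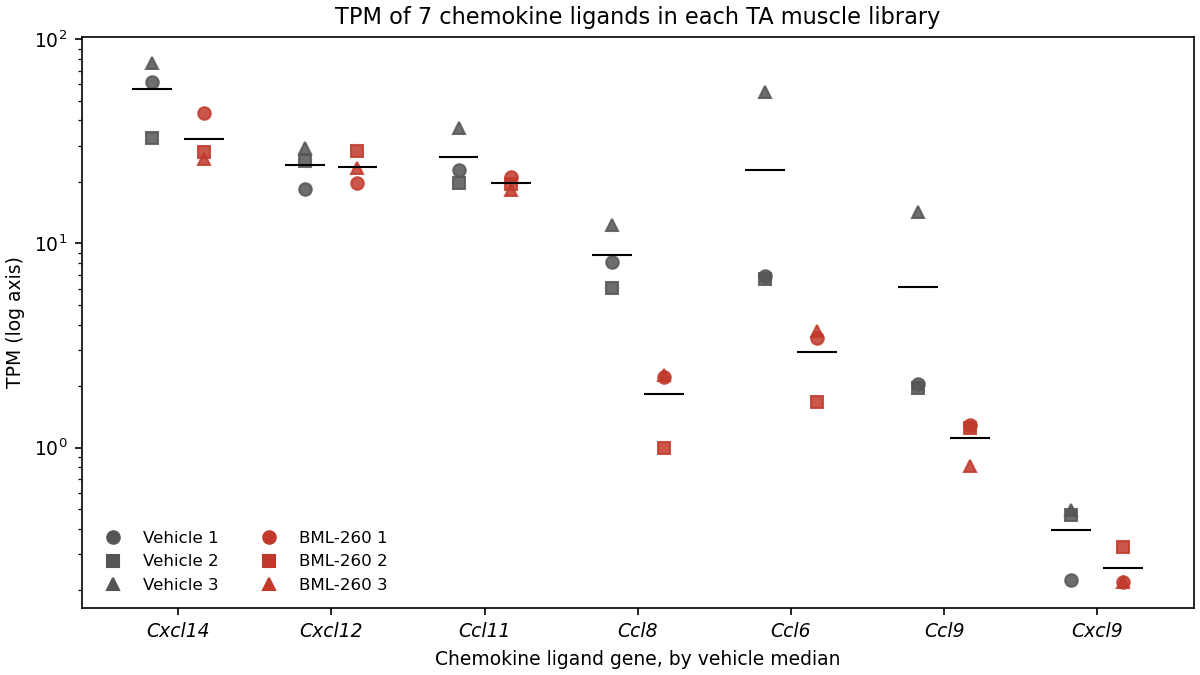
TPM on a log axis for the 7 chemokine ligands in each library, ordered by vehicle median, with grey points for vehicle, red points for BML-260, marker shapes for the replicate number and a line at each group mean. The groups are apart for Ccl8, Ccl6 and Ccl9, and the Ccl6 point of vehicle replicate 3 lies at 55.2 TPM above 6.92 and 6.68 in the other vehicle libraries.

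Fitted differences of the 7 ligands, BML-260 over vehicle, ranged from a log2 fold change of -2.57 to 0.20 with a median of -0.65, against a median of -0.0039 over all 16188 genes tested. Of the 7, 6 had a negative and 1 a positive value. A nominal threshold was also used, an unadjusted p under 0.05 together with a change of 1.3-fold or more. It was passed on the lower side by Ccl8, Ccl6 and Ccl9, where 4.86% of all tested genes passed it, and on the higher side by 0 ligands, where 0.896% of all tested genes did. The same 3 ligands had lower normalized counts in every BML-260 library than in any vehicle library, a pattern held by 6.7% of all tested genes, and 0 had the opposite pattern, held by 5.43%. Because the ligands were chosen on this contrast, nothing is read from these shares.

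Ccl8 (gene identifier 20307, chr11:82115185-82116799) encodes a CC chemokine that in mice acts on the receptor Ccr8. Its level was 8.07, 6.06 and 12.3 TPM in the vehicle libraries and 2.22, 0.996 and 2.27 TPM in the BML-260 libraries. Every vehicle library was above every BML-260 library. Raw counts were 123, 73 and 172 with vehicle and 41, 15 and 27 with BML-260, so the treated values rest on few reads. Mean normalized counts were 113 ± 18.4 with vehicle and 27.8 ± 11.2 with BML-260 (SD, n = 3 each), 4.06-fold higher with vehicle. The lowest vehicle value was 2.62-fold the highest BML-260 value. The fitted log2 fold change was -2.02 ± 0.37 (SE) and was -1.92 ± 0.38 without vehicle replicate 3, which lay 1.23-fold above the mean of the other 2 vehicle libraries. Ccl8 was thus the ligand with a large difference that moved little when that library was left out, and its value stayed between -2.24 and -1.72 under all 15 alternatives. These alternatives refit the libraries on which the ligands were chosen, so the narrow range is a description and no independent support.

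Ccl6 (20305, chr11:83587886-83593087) and Ccl9 (20308, chr11:83572917-83578636) are rodent CC chemokines of myeloid cells that act on Ccr1. Ccl6 was at 6.92, 6.68 and 55.2 TPM with vehicle and at 3.43, 1.66 and 3.73 TPM with BML-260. The groups did not overlap, but vehicle replicate 3 was 5.73-fold above the mean of the other vehicle libraries in normalized counts, and the vehicle mean of 729 ± 772 (SD, n = 3) had an SD larger than itself. With BML-260 the mean was 123 ± 49.1 normalized counts (SD, n = 3). The log2 fold change of -2.57 ± 0.71 (SE) became -1.21 ± 0.31 without vehicle replicate 3, which lowers the fold from 5.94 to 2.31. The Ccl6 locus overlaps the gene E230016K23Rik, to which 7, 5 and 6 counts were assigned with vehicle and 0 in each BML-260 library. The handling of strand in the counting is not given in the sources used here, so reads of the pair may not be fully separated, although Ccl6 had between 66 and 2165 counts.

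Ccl9 was at 2.04, 1.97 and 14.3 TPM with vehicle and at 1.29, 1.25 and 0.813 TPM with BML-260. As for Ccl6, the groups were apart and a single vehicle library was far above the rest. Mean normalized counts were 409 ± 405 with vehicle and 97.8 ± 26.8 with BML-260 (SD, n = 3 each). The log2 fold change was -2.06 ± 0.62 (SE) and fell in size to -0.84 ± 0.26 without vehicle replicate 3, a change from 4.17-fold to 1.79-fold. The lowest vehicle library was 1.44-fold above the highest BML-260 library for Ccl9 and 1.83-fold above it for Ccl6, and neither of these lowest libraries was vehicle replicate 3. The pattern of Ccl6 across the 6 libraries was closest to that of Ccl9 among the ligands, with a mean absolute difference of 0.440 between their centred log2 normalized counts.

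Ccl11 (20292, chr11:82057832-82062955), or eotaxin, attracts eosinophils through Ccr3. Its TPM values were 22.8, 19.9 and 36.7 with vehicle and 21.2, 19.6 and 18.2 with BML-260. The groups overlapped, and in normalized counts the means of 710 ± 87.9 with vehicle and 609 ± 87.9 with BML-260 (SD, n = 3 each) were little more than 1 SD apart. The log2 fold change was -0.23 ± 0.16 (SE), and -0.13 ± 0.16 without vehicle replicate 3. Its difference was thus near its standard error in size, although the gene lies in the same cluster as Ccl8.

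Among the CXC ligands, Cxcl14 (57266, chr13:56288643-56296811), a chemokine made by stromal and epithelial cells at rest, had 61.9, 33.0 and 76.7 TPM with vehicle and 43.5, 28.1 and 25.9 TPM with BML-260. Vehicle replicate 2 lay below BML-260 replicate 1, so the groups overlapped. Mean normalized counts were 2841 ± 905 and 1818 ± 600 (SD, n = 3 each), and the log2 fold change was -0.65 ± 0.30 (SE), or -0.49 ± 0.27 without vehicle replicate 3. Its pattern across libraries was nearest to that of Ccl11, with a mean absolute log2 difference of 0.309.

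Cxcl12 (20315, chr6:117168535-117181368), the ligand of Cxcr4 that retains stem cells and leukocytes in tissues, had 18.5, 25.2 and 29.2 TPM with vehicle and 19.7, 28.3 and 23.5 TPM with BML-260. The libraries of both groups were interleaved. Its log2 fold change was 0.20 ± 0.21 (SE), which was 0.04 ± 0.17 without vehicle replicate 3 and -0.02 when fitted on log2 TPM, a scale on which the median of all genes was also lower by 0.098 to 0.139. No direction is given for Cxcl12.

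Cxcl9 (17329, chr5:92321331-92328079), a ligand of Cxcr3 that is induced by interferon gamma, was the least abundant of the 7. It had 20, 32 and 40 counts with vehicle and 24, 27 and 15 with BML-260, or 0.225, 0.469 and 0.496 TPM against 0.221, 0.327 and 0.220 TPM. The groups overlapped, and the log2 fold change of -0.43 ± 0.43 (SE) was about the size of its standard error, also without vehicle replicate 3 (-0.42 ± 0.51).

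**Figure D2:**
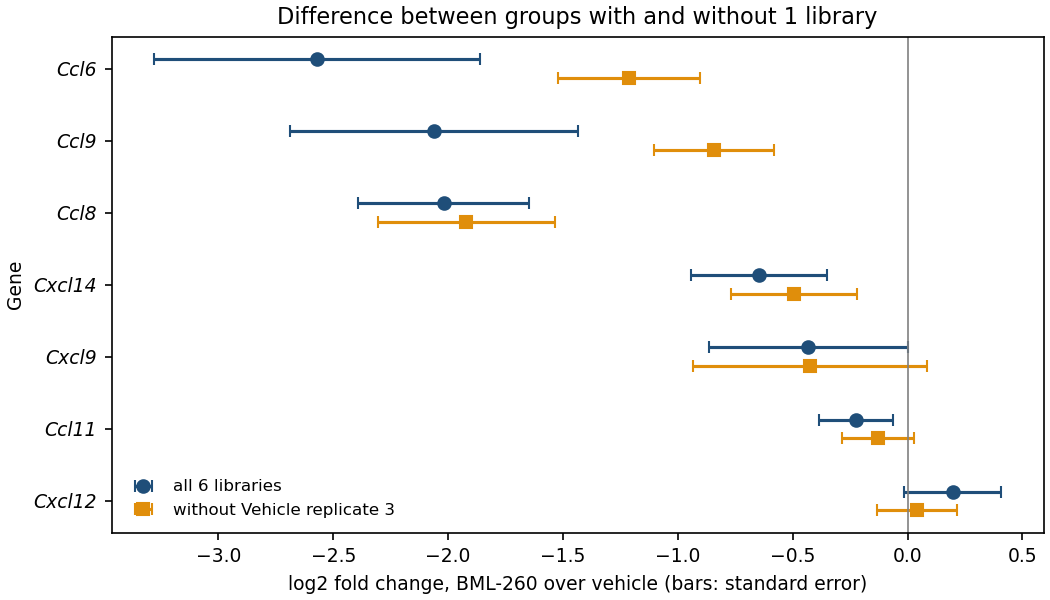
Log2 fold change of BML-260 over vehicle for the 7 ligands, with standard errors as bars, fitted on all 6 libraries (blue circles) and without vehicle replicate 3 (orange squares). Ccl8 stays near -2, at -2.02 and -1.92, while Ccl6 moves from -2.57 to -1.21 and Ccl9 from -2.06 to -0.84.

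The 3 ligands with no row in the TPM tables had few counts outside 1 library. Ccl2, the main attractant of monocytes through Ccr2, had 10, 12 and 210 counts with vehicle and 11, 0 and 10 with BML-260. Ccl7, a further ligand of Ccr2, had 3, 0 and 56 counts against 5, 3 and 4. Cxcl1, which attracts neutrophils through Cxcr2, had 10, 0 and 129 counts against 8, 6 and 5. In each case vehicle replicate 3 was the highest library and the groups overlapped, since the other vehicle libraries were within or near the range with BML-260. No fold change is given for them, since they have no row in the TPM tables and their counts rest mostly on that library. Ccl2 was abundant enough to be tested, while Ccl7 and Cxcl1 were not.

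Across the 7 ligands in the TPM tables, vehicle replicate 3 was the highest of the 6 libraries for 5 in normalized counts and for all 7 in TPM. Of all 16188 tested genes, 5228 were highest in that library in normalized counts. The scale mattered, since Cxcl12 was lowest there in normalized counts, at 1479, and highest there in TPM, at 29.2. The summed TPM of the macrophage, monocyte and neutrophil markers were also highest in vehicle replicate 3. A single marker could differ, as the monocyte marker Ccr2 was highest in vehicle replicate 2. Ccr2 is also among the receptors described below. The 14 macrophage markers were all in the TPM tables. They summed to 147, 147 and 637 TPM with vehicle and 103, 89.9 and 111 TPM with BML-260. On the lower side 9 of the 14 passed the nominal threshold, where 4.86% of all tested genes did. So did 4 of 5 tested monocyte markers and 5 of 5 tested neutrophil markers. The macrophage markers Cd68 (log2 fold change 0.0018), Mertk (-0.21), Folr2 (-0.76), Fcgr1 (-0.87) and Lyve1 (-2.27) did not pass. For monocytes, 4 of 5 markers were in the tables with sums of 8.05, 9.67 and 30.8 TPM against 5.48, 5.45 and 6.98 TPM. For neutrophils, 4 of 9 markers were in the tables, with sums of 165, 23.8 and 804 TPM against 7.50, 6.92 and 12.1 TPM. The defining genes Ly6g, Retnlg, Ngp, Camp and Ltf were not among them and are given in raw counts. Retnlg had 116, 12 and 551 counts with vehicle and 0, 0 and 10 with BML-260. With vehicle Ngp had 8, 0 and 1036 counts, Camp 0, 0 and 494, Ltf 0, 14 and 1211, and Ly6g 0, 0 and 32. Ngp, Camp, Ltf and Ly6g had 0 counts in every BML-260 library. The groups did not overlap in the TPM sums of the macrophage, monocyte or neutrophil markers. The part of these cells in the ligand values was not tested.

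By summed TPM the other cell classes did not separate the groups. Of 10 tested fibroblast markers 1 passed the nominal threshold on the lower side, Col1a1 (log2 fold change -0.43), where 4.86% of all tested genes did. No tested endothelial, pericyte and smooth muscle, eosinophil and mast cell or B cell marker passed it. Fibroblast markers, 10 of 10 in the tables, summed to 1194, 594 and 1458 TPM with vehicle and 1070, 776 and 701 TPM with BML-260. They were highest in vehicle replicates 3 and 1 and then in BML-260 replicate 1, as Cxcl14 was in TPM. The lower libraries differed in order. Vehicle replicate 2 was lowest for these markers, but for Cxcl14, at 33.0 TPM, it was above BML-260 replicates 2 and 3, at 28.1 and 25.9 TPM. Endothelial markers summed to 68.6 to 95.6 TPM with vehicle and 64.7 to 81.3 TPM with BML-260. Pericyte and smooth muscle markers summed to 300.2 to 342 TPM with vehicle and 284 to 362 TPM with BML-260. Eosinophil and mast cell markers, 5 of 9 in the tables, summed to 3.65 to 6.62 TPM with vehicle and 3.06 to 6.36 TPM with BML-260, with Epx at 0 counts in all libraries. For T and NK cells 1 of 10 markers was in the tables, Cd2, at 0.167 to 0.285 TPM, and for B cells 1 of 5.

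**Figure D3:**
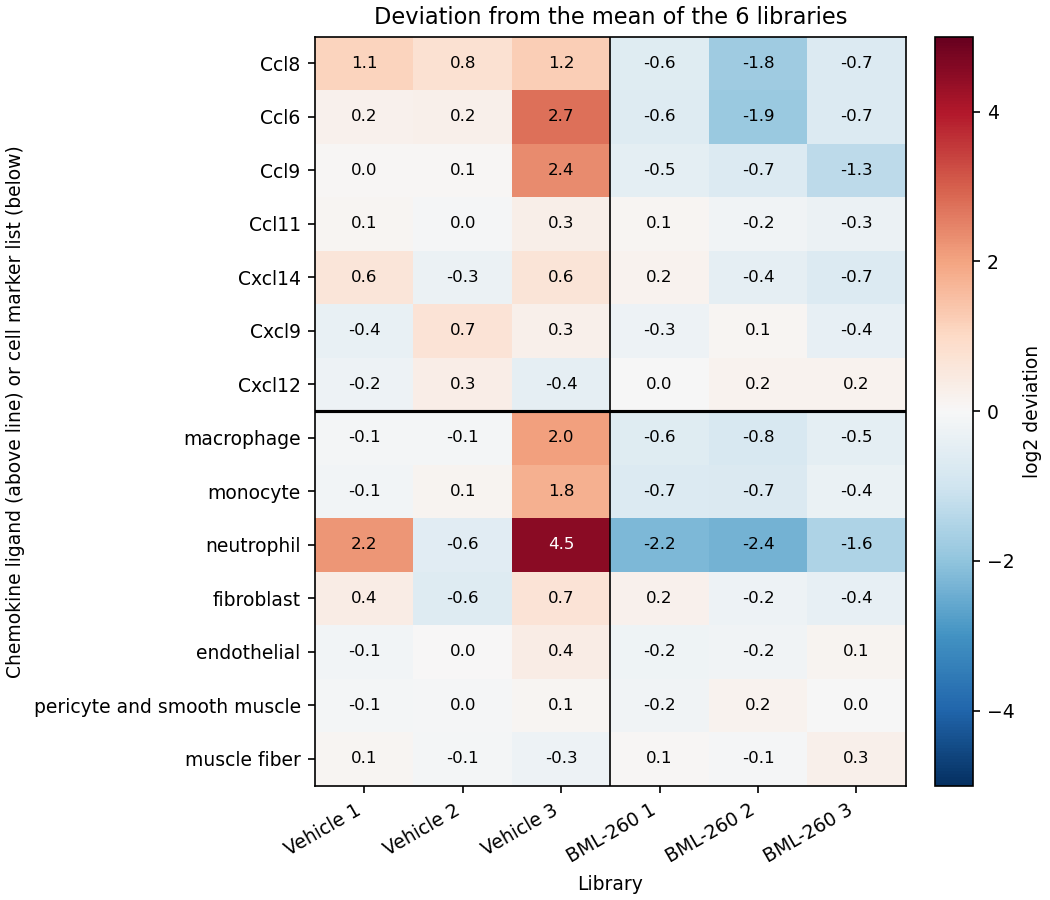
Log2 deviation of each library from the mean of the 6, for the normalized counts of the 7 ligands (above the line) and for the summed TPM of marker lists (below it). Vehicle replicate 3 lies 2.74 above the mean for Ccl6, against 0.22 and 0.24 in the other vehicle libraries, and is also the highest column for the macrophage, monocyte and neutrophil lists, while the 3 vehicle libraries lie at 1.10, 0.76 and 1.23 for Ccl8.

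By the same measure of likeness, genes outside the chemokine lists whose pattern was near to that of Ccl8, among 13508 candidates over the 6 libraries, included Arhgdig, Tekt1, Bend5 and Sema4a, with mean absolute log2 differences of 0.265, 0.279, 0.295 and 0.347. Arhgdig had 42, 55 and 97 counts with vehicle and 27, 9 and 17 with BML-260, and the groups did not overlap. Since these genes were picked for likeness to Ccl8, their own separation of the groups is no further result. The nearest ligand to Ccl8 was Ccl6, at 0.504. It was sought among the few other ligands and not among 13508 candidates, so nothing is read from its larger distance.

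The receptors of the ligands were examined next, as genes that had not been used to choose the ligands, although the list was drawn up with earlier results of these data known. Of 24 receptor genes 10 were abundant enough to be tested, and 4 passed the nominal threshold on the lower side and 0 on the higher side, where 4.86% and 0.896% of all tested genes did. Their median log2 fold change was -0.75, against -0.0039 over all tested genes. The smallest adjusted p among them was 0.631 (edgeR quasi-likelihood test with Benjamini-Hochberg adjustment). With the DESeq2 Wald test the unadjusted p of these 4 was 8.8e-05 for Cxcr2, 1.7e-04 for Ccr1, 0.0034 for Ackr1 and 0.018 for Ccr2. Adjusted p of single genes by DESeq2 are not given here, so the adjusted values printed for named genes hold for edgeR only.

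Ccr1, the receptor of Ccl6 and Ccl9 on myeloid cells, had 43, 15 and 228 counts with vehicle and 10, 4 and 13 with BML-260. Its log2 fold change was -3.04 ± 0.86 (SE, edgeR adjusted p = 0.699), and -1.69 without vehicle replicate 3. On log2 (TPM + 1) it was -0.80 and did not pass. The groups did not overlap, but the 15 counts of the lowest vehicle library were close to the 13 counts of the highest BML-260 library. Ccr2, which binds Ccl2 and Ccl7, had normalized counts of 305, 565 and 362 against 277, 193 and 284, with a log2 fold change of -0.71 ± 0.27 (SE, edgeR adjusted p = 0.788). Unlike for Ccr1, vehicle replicate 2 was the highest library, and the value was -0.79 without vehicle replicate 3. Without vehicle replicate 2 it was -0.41 and without BML-260 replicate 2 it was -0.55, and in both cases it no longer passed the nominal threshold.

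Cxcr2, the receptor of Cxcl1 on neutrophils, had 60, 14 and 151 counts with vehicle and 4, 2 and 12 with BML-260, with a log2 fold change of -3.28 ± 0.86 (SE, edgeR adjusted p = 0.631), and -2.56 without vehicle replicate 3. Ackr1, an atypical receptor of red cells and venular endothelium that binds inflammatory chemokines of both classes, had 47, 47 and 33 counts against 15, 10 and 14. Here vehicle replicate 3 was the lowest vehicle library, and the log2 fold change of -1.68 ± 0.48 (SE, edgeR adjusted p = 0.699) was -1.97 without it. Ackr1 thus had groups apart without its highest value in vehicle replicate 3, unlike the summed myeloid markers. Single myeloid markers could also be apart without a marked peak in that library. The macrophage marker Adgre1 had normalized counts of 353, 349 and 379 with vehicle against 200.5, 116 and 194 with BML-260. For it vehicle replicate 3 was 1.08-fold above the mean of the other vehicle libraries.

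The receptors of Cxcl12 overlapped between the groups, as their ligand did, with log2 fold changes of -0.11 ± 0.25 for Cxcr4 and -0.30 ± 0.25 for Ackr3 (SE). The scavenging receptor Ackr2 was at 0.0081 ± 0.40 and took either sign among the alternatives. Ccr8, the receptor of Ccl8 in mice, had 0 counts in all 6 libraries, which does not exclude a low level of expression. Ccr3, the receptor of Ccl11, had 4 counts in vehicle replicate 3, 3 in BML-260 replicate 1 and 0 elsewhere. Cxcr3, the receptor of Cxcl9, had 10, 4 and 6 counts against 11, 0 and 0. These 3 receptors were too low to be tested.

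**Figure D4:**
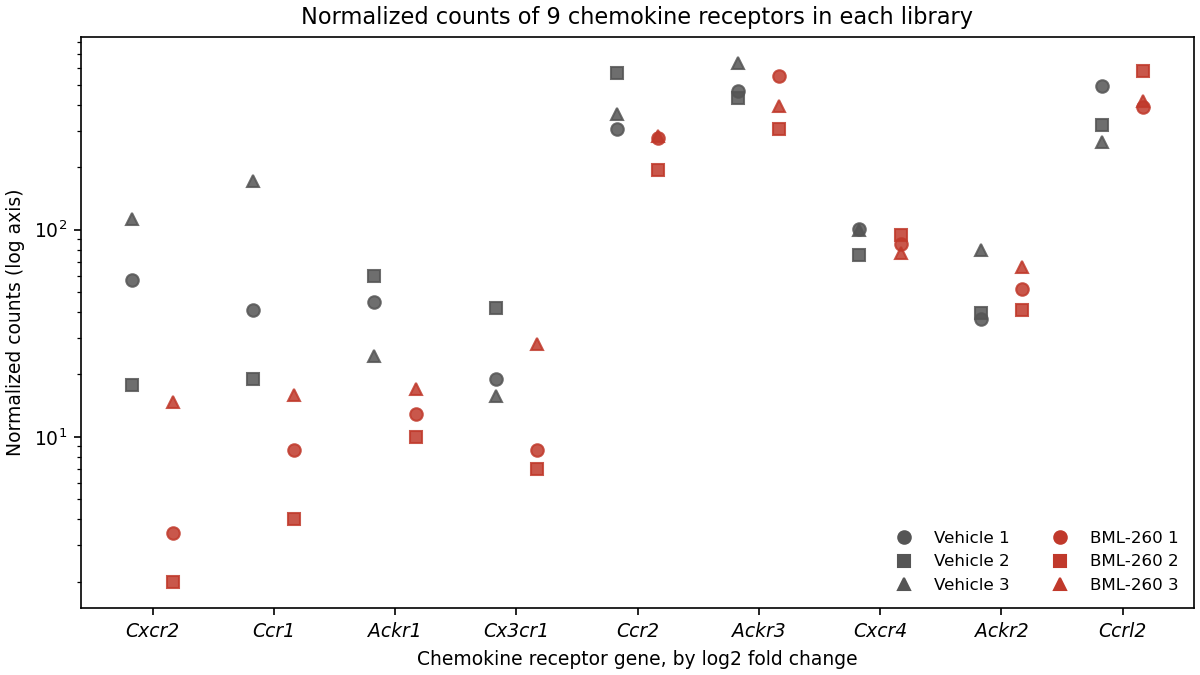
Normalized counts on a log axis for 9 of the tested chemokine receptors in each library, ordered by log2 fold change, with grey points for vehicle, red points for BML-260 and marker shapes for the replicate number. The groups are apart for Cxcr2, Ccr1, Ackr1 and Ccr2 and overlap for the other 5.

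The rest of the chemokine family had 34 further ligand genes, of which 30 were in the count table and 15 were tested. Of these, 3 passed the nominal threshold on the lower side and 0 on the higher side (4.86% and 0.896% of all tested genes), and the median of their log2 fold changes was -0.62 (smallest edgeR adjusted p = 0.631). Cxcl10, an interferon-induced ligand of Cxcr3 like Cxcl9, had 15, 27 and 84 counts with vehicle and 10, 4 and 6 with BML-260, with a log2 fold change of -2.46 ± 0.65 (SE) and -1.83 without vehicle replicate 3. Cxcl13, which guides B cells, had 84, 39 and 996 counts against 25, 17 and 17, with -3.88 ± 1.00 (SE) and -1.72 without that library. Ppbp, a platelet chemokine, had 71, 109 and 94 counts against 51, 33 and 46, with -1.05 ± 0.39 (SE) and -1.21 without it, but it did not pass without vehicle replicate 2 (-0.63), BML-260 replicate 1 (-1.04) or BML-260 replicate 2 (-0.87). Thus Cxcl10 and Cxcl13 shared with Ccl6 and Ccl9 the highest value in vehicle replicate 3, and Ppbp did not. Among the 15 tested, 5 had every BML-260 library below every vehicle library (6.7% of all tested genes) and 1 had the opposite pattern (5.43%), which was Ccl28, with a log2 fold change of 0.56 ± 0.34 (SE, edgeR adjusted p = 0.788).

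Among 21 known inducers of chemokine genes 15 were tested, the median of their log2 fold changes was -0.24, and 5 passed the nominal threshold, each lower with BML-260, a side on which 4.86% of all tested genes passed. Il1b, a cytokine that induces Ccl2 and Cxcl1 in many cells, had 120, 26 and 375 counts with vehicle and 16, 18 and 18 with BML-260, with a log2 fold change of -3.00 ± 0.70 (SE, edgeR adjusted p = 0.598) and -2.07 without vehicle replicate 3. With the DESeq2 Wald test the unadjusted p of Il1b was 3.5e-06. The transcription factor genes were Junb (-2.16 ± 0.65), Fos (-2.18 ± 0.89), Nfkb2 (-0.49 ± 0.19) and Hif1a (-0.43 ± 0.18, log2 fold change with SE). Without vehicle replicate 3 these were -0.85, -0.37, -0.45 and -0.32, and Fos and Hif1a no longer passed. Leaving out other single libraries also ended the passing of Nfkb2 (vehicle replicate 1 at -0.37, BML-260 replicate 1 at -0.44, BML-260 replicate 2 at -0.41), of Fos (BML-260 replicate 1 at -1.91, BML-260 replicate 2 at -1.88) and of Hif1a (vehicle replicate 2 at -0.38, BML-260 replicate 1 at -0.37, BML-260 replicate 3 at -0.38), whereas Il1b and Junb passed in each case. On log2 (TPM + 1) Il1b and Junb passed and the other 3 did not, and Fos also did not pass with DESeq2 or with voom quality weights. Tnf, Il6, Ifng, Il4, Il13 and Csf2 were too low to be tested.

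Of 14 genes whose products present or cleave chemokines, all were tested and 3 passed the nominal threshold, each lower with BML-260 (4.86% of all tested genes), while the median log2 fold change was -0.06 and 7 were on either side of 0. These were Mmp9, a gelatinase of neutrophils and macrophages, at -2.53 ± 0.82, the membrane protease gene Mmp14 at -0.88 ± 0.28, and Sdc4, a heparan sulfate proteoglycan that binds chemokines, at -0.82 ± 0.31 (log2 fold change with SE). Without vehicle replicate 3 they were at -0.99, -0.46 and -0.30, and only Mmp14 still passed. Mmp9 also did not pass without BML-260 replicate 2 (-2.24), nor Sdc4 without BML-260 replicate 1 (-0.86), 2 (-0.81) or 3 (-0.78). On log2 (TPM + 1) none of the 3 passed, Mmp14 included, and Mmp9 did not pass with voom quality weights. The smallest edgeR adjusted p in this list was 0.709.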

How the data were processed

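The authors sequenced TA muscle RNA with a stranded total RNA kit. Per the labels' processing notes, HISAT2 2.1.0, StringTie 2.1.3b, Trimmomatic 0.38 and Bowtie2 2.3.4.1 were used with build mm10, which is GRCm38. The counting program and its handling of strand and multi-mapped reads are not given in the sources used here. The authors deposited raw counts per gene, not normalized, in 1 table, and TPM values, scaled for transcript length and library total, in 1 table per library. All 6 libraries were used, between 39522890 and 56998875 counts each. The ligands, gene lists and marker lists were chosen with earlier results of these data known.

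Genes were kept by filterByExpr (16188 genes), scaled by TMM and fitted with edgeR 4.0.16 in R 4.3.3 (quasi-likelihood F-test, Benjamini-Hochberg adjustment over all genes tested). Standard errors are the log2 fold change divided by the square root of F. Normalized counts are counts divided by DESeq2 1.42.0 size factors. The nominal threshold was an unadjusted p under 0.05 together with a change of 1.3-fold or more. The study's methods give 3 mice per group, and with 3 against 3 an exact permutation test cannot give a p under 0.1, so none is printed. Genes named were all 10 ligands, the listed genes past the nominal threshold, the known receptors of the ligands and the 5 genes most like Ccl8, except 2 genes that are not reported here. Ccl28 was named after its values were seen. Likeness was the mean absolute difference of log2 (normalized count + 1) centred on each gene's mean, over genes with a mean of at least 10. The fitting steps were tested on simulated counts. Alternatives were another scaling, other filters, a replicate block, each library left out, DESeq2, limma 3.58.1 with voom quality weights, and limma on log2 (TPM + 1) or log2 (TPM + 0.1). Gene names and promoter sequences came from RefSeq GRCm38.p6, in which 45679 of 45777 identifiers were found. Figures were drawn with matplotlib 3.10.9.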

Additional observations from a re-analysis of the deposited data

How the results depend on the processing

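The median log2 fold change of the 7 ligands, -0.65, lay between -0.94 and -0.44 under all 15 alternatives and between -0.94 and -0.47 with 1 library left out. Ccl6, Ccl8, Ccl9, Ccl11, Cxcl9 and Cxcl14 kept a negative value under all of them. Cxcl12 turned from 0.20 to -0.0217 on log2 (TPM + 1) and -0.0221 on log2 (TPM + 0.1). Ackr2, at 0.0081, was -0.0147 with upper quartile scaling, -0.00155 with at least 10 counts in every library, -0.186 without vehicle replicate 1, -0.151 without vehicle replicate 2, -0.179 without BML-260 replicate 3 (up to 0.46, without vehicle replicate 3), and -0.0613 and -0.0695 on the TPM scales. The number of neighbours in the vehicle order of levels that did not overlap, 3, was 4 without vehicle replicate 3.

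Genes at an adjusted p under 0.05 were 0 with edgeR, 1 without the filter, 1 with at least 10 counts in every library, 1 with voom quality weights, 95 with DESeq2 and 0 to 9 with 1 library left out (9 without vehicle replicate 1 and 6 without vehicle replicate 3). Genes past the nominal threshold were 931 (84.4% lower), 1416 without the filter, 503 on log2 (TPM + 1), 890 with voom quality weights (71.3% lower) and 503 to 2223 with 1 library left out, the extremes being without BML-260 replicate 2 (403 shared with the 931) and without vehicle replicate 1 (833 shared, 62.4% lower). Other ligands past it were 3, 5 with voom quality weights, and 3 to 4 with 1 library left out. For receptors the 4 were 3 to 5 with 1 library left out. Inducers and handling genes past it were 8, 2 on log2 (TPM + 1), 5 on log2 (TPM + 0.1), and 4 to 9 with 1 library left out (4 without vehicle replicate 3, 5 without BML-260 replicate 1 and 4 without BML-260 replicate 2). The cause of these shifts was not tested.

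The replicate block gave 0 genes at the adjusted threshold and 1057 past the nominal threshold, 736 of them shared with the 931, a ligand median of -0.64, 2 other ligands, 3 receptors and 8 inducers and handling genes. Under it Ccr2, Ppbp and Sdc4 did not pass the nominal threshold. Deviations of same-numbered libraries correlated across genes by 0.162, 0.0541 and 0.110, so the libraries share a number and are not taken as pairs. Every library correlated best with its own number, a hint from the data and not from the design.

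With 3 libraries a group and 15 to 41 counts for Ccl8 under BML-260, counting error alone is wide, and low receptors such as Ccr8, Ccr3 and Cxcr3 could not be compared.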

Other observations

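Values relative to macrophage markers, a measure chosen after the values were seen, differed among the ligands of myeloid cells. For each 100 TPM of the summed macrophage markers, Ccl8 was at 5.49, 4.13 and 1.93 TPM with vehicle and 2.15, 1.11 and 2.04 TPM with BML-260. The groups then overlapped, with vehicle replicate 3 below BML-260 replicates 1 and 3. This overlap came from vehicle replicate 3 alone, since vehicle replicates 1 and 2 were above every BML-260 library. Ccl6 was at 4.71, 4.55 and 8.66 TPM against 3.32, 1.85 and 3.35 TPM by the same measure, and its groups remained apart. Ccl9 was at 1.39, 1.34 and 2.24 TPM against 1.25, 1.40 and 0.731 TPM and overlapped. A large part of the macrophage sums came from Lyz2 alone, at 74.0, 78.8 and 354 TPM with vehicle. With BML-260 Lyz2 was at 52.4, 45.0 and 58.9 TPM. The measure was not repeated without Lyz2, so these overlaps hold only for this set of markers.

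Of the low inflammatory transcripts outside the 10 ligands, 3 are named here after their values were seen, because most of their counts were in vehicle replicate 3. Cxcl2, a neutrophil attractant, had 79 counts there and 0 in the other 5 libraries. Ccl3, a ligand of Ccr1, had 24 counts there and 0 elsewhere. The cytokine Il6 had 75 counts there against 0 and 3 in the other vehicle libraries and 0, 8 and 5 with BML-260. Others of the same lists did not show this, such as Tnf with 12, 0 and 9 counts against 5, 8 and 9, and Ccl5 with 2, 22 and 11 counts against 15, 5 and 4.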
